A study of Mus musculus with 33 samples.

Results

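The mouse Tcra-Tcrd locus on chromosome 14 carries the delta genes between the V gene array and the J alpha genes. The 80 kb interval described here, from 54.07 to 54.15 Mb (mm10), runs from just downstream of the CTCF-binding element INT2 to just upstream of the TEA promoter (TEAp) and holds the D delta, J delta and C delta genes. Its members are pairs of 5 kb bins with at least 1 bin in this interval and the other anywhere between 53.74 and 54.3 Mb, the 560 kb region that reaches from Trav17 to beyond the enhancer Eα. They number 1672, or 26.4% of the bin pairs of the region, and involve 16 bins, or 14.3% of its bins, and 1493 of them had at least 1 read in some library.

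Contacts were measured by 3C-HTGTS, in which chromatin is cut with MboI, ligated, and amplified from a primer on a chosen bait, so that a read can carry the bait and several fragments that were near it. The first 2 fragments after the bait form a pair, and bait and pair together form a three-way contact. DP thymocytes came from Rag1-/- C57BL/6 mice given anti-CD3 (150 µg, clone 2C11) at 3 weeks of age, with thymi taken 10 days later. All groups shared the Rag1 deletion, so none of the cells had rearranged this locus. DP WT kept the CTCF-binding element just downstream of Eα (EACBE), DP CBEko mice lacked it on both alleles, and WT liver, also from Rag1-/- mice, was the non-lymphoid control. DP WT was assayed from the baits Trav17, INT2, TEAp, Eα and Trdd2 with 3 libraries each and from a second Eα bait with 1 library. DP CBEko was assayed from Trav17, TEAp and Eα with 3 libraries each, and liver from Trav17, INT2, TEAp and Eα with 2 libraries each. The methods give no sorting of the thymocytes, and contact data hold no marker genes with which to check the cell type.

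Depth differed widely across the 33 libraries. The 25 DP libraries held 9280 to 256778 pairs in the region and the 8 liver libraries 406 to 29910. The smallest liver libraries were those of Eα (728 and 406 pairs), Trav17 (1247 and 675) and TEAp (3333 and 818). The libraries carried no molecular identifiers, and in the 22 libraries with read-level files each distinct pair of interval fragments was seen 2.12 to 13.8 times on average, so counts include PCR copies and every interval given here covers counting error only. The labels fitted the reads: the MboI fragment chr14:54228261-54228414 beside Eα had 103 to 1136 reads in each of the 9 DP WT libraries of the Eα, TEAp and Trav17 baits and 0 in each of the 9 DP CBEko libraries. DP WT and DP CBEko libraries of the same bait shared 0 sequencing flow cells, so genotype and flow cell cannot be told apart in any comparison of the genotypes.

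The D and J segments are the raw material of V(D)J recombination. Each is flanked by a recombination signal sequence (RSS), a conserved heptamer and nonamer that the RAG recombinase binds and cuts. Delta genes rearrange in early, CD4-CD8- thymocytes, while in DP cells the J alpha genes further downstream are joined to V genes and the delta genes are lost from that allele. TEAp is the promoter that opens the J alpha array, Eα is the main enhancer of Tcra, and INT1 and INT2 are CTCF-binding elements between the V genes and the delta genes.

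The annotation (GENCODE vM21) places 7 T-cell receptor genes in the interval. From left to right these are Trdv4 (chr14:54074905-54075515), a V gene, the D genes Trdd1 (chr14:54113468-54113478) and Trdd2 (chr14:54122226-54122241), the J genes Trdj1 (chr14:54123138-54123188) and Trdj2 (chr14:54136779-54136837), the constant gene Trdc (chr14:54142851-54148868), all on the plus strand, and Trdv5 (chr14:54148662-54149294), a V gene on the minus strand. The antisense transcripts Gm30275 (chr14:54067579-54125395) and Gm43434 (chr14:54128298-54146287) and the small RNA Gm23704 (chr14:54117054-54117393) overlap them. The D segments are shown because they locate the RSS heptamers and because an MboI site lies in Trdd2. Each is printed with 40 bases of flank (GRCm38.p6, plus strand), with the 7 bases on either side of the segment in capitals, and then the MboI site of Trdd2 is printed in capitals.
Trdd1: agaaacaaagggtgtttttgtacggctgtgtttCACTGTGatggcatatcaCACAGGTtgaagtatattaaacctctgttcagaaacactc
Trdd2: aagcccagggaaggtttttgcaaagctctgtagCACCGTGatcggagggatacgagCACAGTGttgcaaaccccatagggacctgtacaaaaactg
Trdd2 MboI site: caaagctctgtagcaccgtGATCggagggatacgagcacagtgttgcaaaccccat

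The consensus heptamer CACAGTG, read on either strand, matched exactly on the left of Trdd1 (as CACTGTG) and on the right of Trdd2. MboI cuts at GATC, and the site at chr14:54122225-54122228 straddles the left edge of Trdd2, so the assay separates Trdd2 from its left RSS. Trdd2 and Trdj1 lay together on the fragment chr14:54122225-54123223, and the bait primer of the Trdd2 libraries lay on the neighbouring fragment, chr14:54121509-54122224. Across 5 kb bins the interval did not stand out by these letters: GATC was in 16 of 16 interval bins and in every bin of the region, CACAGTG in 75% of interval bins against 74.1% of region bins, and the nonamer ACAAAAACC in 12.5% against 18.8%. The CTCF core (CCA, AG and GGC, each separated by 2 bases of any kind) was in 1 of 16 interval bins (6.25%, chr14:54090001-54095000) and in 16.1% of the region's bins. This pattern had no match in the bins of the INT2, TEAp and Eα bait fragments, where the study places CTCF-binding elements. A match, or the lack of one, therefore does not tell whether a bin binds CTCF.

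How often the interval took part in a three-way contact depended on the bait. The share of the region's pairs with a fragment in the interval was 57.7%, 59.7% and 57.2% from the Trdd2 bait, which lies inside it. It was 37.5% ± 0.492 (SD, n = 3) from TEAp, just beyond its right end, and 28.9% ± 1.91 (n = 3) from INT2, just beyond its left end. From the more distant Eα bait it was 19.9% ± 0.738 (n = 3) and from Trav17 15.4% ± 0.631 (n = 3). The single library of the second Eα bait gave 21.1% (95% Wilson interval 20.8 to 21.4). The baits lie at different distances, so these shares were not tested against each other.

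**Figure D1:**
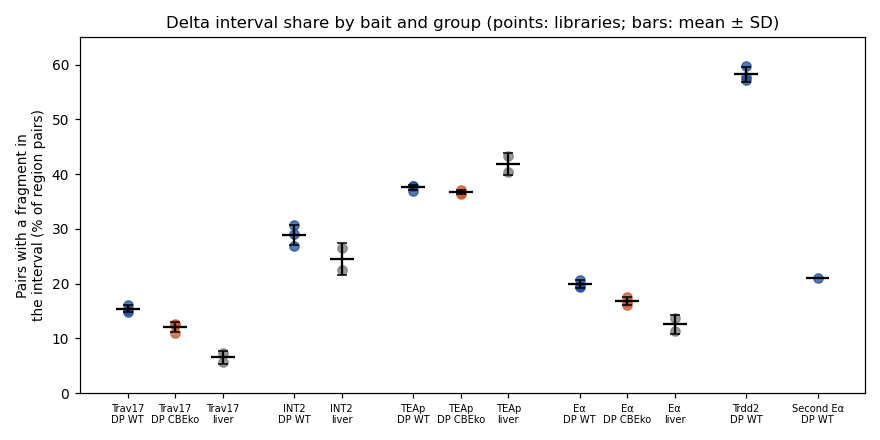
Share of the region's pairs with at least 1 fragment in the delta interval (y axis, %), by bait and group (x axis). Points are libraries and bars are mean ± SD (DP groups n = 3, liver n = 2, second Eα bait n = 1). The Trdd2 bait sits highest, at 57.2 to 59.7%, and the liver Trav17 libraries lowest, at 5.63 and 7.38%.

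In DP cells the contacts of the interval were concentrated in 2 neighbouring bins around Trdd2 and Trdj1. The bin chr14:54125001-54130000, between Trdj1 and Trdj2, held the largest share of the interval's fragments from every DP bait. The Trdd2 bin, chr14:54120001-54125000, which holds Trdd2 and Trdj1, was the second in every DP WT group.
From the TEAp bait the bin between Trdj1 and Trdj2 held 27.1%, 28.5% and 28.5% of the interval's fragments in the 3 DP WT libraries, and from the Eα bait 23.2%, 27.2% and 23.9%. From Trav17 it held 22.2%, 20.3% and 21.3%, from INT2 17.6%, 18.5% and 19.3%, and from the Trdd2 bait 27%, 27.2% and 25.9%. The second Eα bait gave 32%. Set against the median bin of the interval, it stood 3.22 times higher from INT2, the flattest profile, and 9 times higher from the Trdd2 bait. The libraries of a bait lay close together, and no other interval bin reached this one in any DP WT library.

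The Trdd2 bin came next, with 14.8% ± 1.59 of the interval's fragments from TEAp, 13.6% ± 0.544 from Eα, 12.3% ± 1.15 from Trav17, 12% ± 0.495 from INT2 and 19.5% ± 1.05 from the Trdd2 bait itself (SD, n = 3 each). Behind these the baits differed. The bin to the left of Trdd2, chr14:54115001-54120000, was the third from Eα (9.26%) and from the Trdd2 bait (15.4%). From Trav17 the third was chr14:54095001-54100000 (10.9%), from TEAp the Trdj2 bin chr14:54135001-54140000 (8.2%), and from INT2 the bin with the right end of Trdc, starting at 54145001 (7.8%). The Trdd1 bin, chr14:54110001-54115000, held 4.56 to 5.88% in the 5 replicated DP WT groups, and the bins that Trdv4 spans each held less than it from every replicated bait except INT2.

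1 bin, chr14:54130001-54135000, had no fragment in any library. All of its bases are marked as repeats in the reference, against a median of 21.9% over the region's bins, and none of its 26 MboI fragments had a read. The only other empty bin of the region, chr14:53935001-53940000, was repeat-marked over 96.4% of its bases. Contacts of that part of the interval could not be measured. In all, 158 of the 195 MboI fragments of the interval had a read (81%), against 85.1% in the region.

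**Figure D2:**
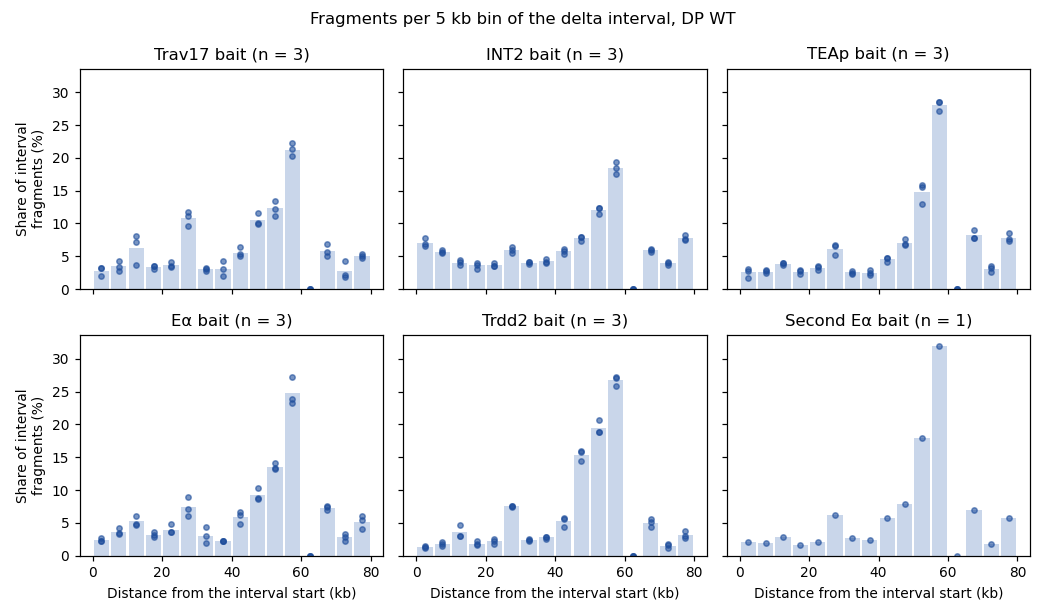
Share of the interval's fragments (y axis, %) in each 5 kb bin against distance from the interval start (x axis, kb), 1 panel per DP WT bait. Bars are means and points are libraries. The bin at 55 to 60 kb is the highest in all 6 panels, between 18.5% (INT2) and 32% (second Eα bait), and the bin at 60 to 65 kb is empty.

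The order of the 2 leading bins held in most ways of counting. Without pairs that lie in a single bin, the bin between Trdj1 and Trdj2 still led from Trav17 (18%), INT2 (15.1%), TEAp (21.4%), Eα (19%) and the second Eα bait (23.4%), but from the Trdd2 bait the Trdd2 bin passed it, at 22.5% against 22.2%, with libraries that overlapped. Divided by the number of MboI fragments in each bin, the Trdd2 bin also led from INT2 and Trdd2. Over the 15 bins with reads, the mean profiles of the DP groups were alike across baits, with Pearson's r from 0.82 (Trav17 in DP CBEko with INT2 in DP WT) to 0.99 (TEAp with the second Eα bait). Some liver profiles were as like those of DP groups, with r up to 0.905 (Trav17 in DP CBEko with TEAp in liver). The liver profile from Eα reached at most 0.558 with a DP group, and that from INT2 gave -0.114 to 0.181. These correlations are a description across bins, which share base composition, mappability and the same MboI fragments.

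At the level of single MboI fragments, which the read-level files give for 8 DP groups, the same few fragments led from bait to bait. The fragments chr14:54127435-54127547, chr14:54127563-54127752 and chr14:54128337-54128500, all between Trdj1 and Trdj2, were among the 10 with the most reads in 8 of 8 groups, and chr14:54126159-54126229 in 7 of 8. From TEAp, chr14:54128337-54128500 took 3.6% ± 0.158 of the interval's fragments and chr14:54127435-54127547 took 3.15% ± 0.386 (SD, n = 3), and from Eα these took 3.36% ± 0.0709 and 3.2% ± 0.624. From the Trdd2 bait the leader was chr14:54123224-54123289, just to the right of the Trdj1 fragment, with 5.39 to 6.03% in the 3 libraries. From TEAp the third was chr14:54148713-54148824, where the right end of Trdc overlaps Trdv5, with 2.86% ± 0.745.

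Counting each distinct pair of fragments once changed this order. In DP WT the fragment chr14:54127435-54127547, the first by reads from Trav17, became the tenth, and chr14:54096260-54096336, the second by reads there, became number 57. The fragments that led by distinct pairs were chr14:54124411-54124701 from Eα (2.51%) and from the second Eα bait (3.78%), chr14:54123224-54123289 from the Trdd2 bait (4.42%) and chr14:54148713-54148824 from TEAp (2.43%). The leading fragment from the Trdd2 bait and 3 of those that recurred across groups between Trdj1 and Trdj2 are printed here in full (GRCm38.p6, plus strand), with the MboI sites at either end in capitals.
fragment 54123224: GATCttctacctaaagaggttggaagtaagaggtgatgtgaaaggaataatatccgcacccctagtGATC
fragment 54126159: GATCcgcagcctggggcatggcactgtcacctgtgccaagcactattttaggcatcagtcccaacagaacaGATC
fragment 54127435: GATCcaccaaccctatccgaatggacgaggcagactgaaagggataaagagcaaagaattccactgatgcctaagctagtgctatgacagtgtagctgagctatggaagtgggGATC
fragment 54128337: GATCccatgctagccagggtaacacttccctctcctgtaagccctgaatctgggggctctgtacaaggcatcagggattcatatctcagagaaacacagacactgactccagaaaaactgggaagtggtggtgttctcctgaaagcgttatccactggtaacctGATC

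The fragments that carry the genes themselves took smaller shares. The Trdd2 and Trdj1 fragment took 1.08% ± 0.153 of the interval's fragments from TEAp, 1.01% ± 0.361 from Eα and 1.07% ± 0.491 from Trav17 in DP WT (SD, n = 3). It had 0 reads in the 3 libraries of the Trdd2 bait, whose own fragment is its neighbour and whose neighbours the processing removed. The Trdd1 fragment, chr14:54112929-54113712, took 0.287% from TEAp, 0.371% from Eα and 0.42% from Trav17, and the Trdj2 fragment, chr14:54135624-54137064, took 0.162%, 0.192% and 0.405%.

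A large part of the reads with both fragments in the interval came from pairs separated by a single, very short MboI fragment. In the 22 libraries with read-level files, pairs of fragments with exactly 1 fragment between them made up 12 to 27.6% of interval pairs (median 17%), while pairs of the same fragment or of neighbouring fragments numbered 0, since continuous fragments had been removed. Only 6 such pairs held 32782 of these 47950 reads (68.4%), each was seen in 22 of 22 libraries, and the fragment between was 9 to 21 bp long. Of the 193 interval fragments that could lie between in this way, 17 are shorter than 30 bp and the median is 283 bp. Why these pairs were frequent was not tested.

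The 6 pairs are shown because the short fragment can be read directly between the 2 MboI sites, which are in capitals with 20 bases on either side (GRCm38.p6, plus strand). Junction 1 lies between chr14:54127435-54127547 and chr14:54127563-54127752, and junction 3 between chr14:54127753-54128327 and chr14:54128337-54128500, so both fall in the leading bin between Trdj1 and Trdj2. Junction 2 falls in the Trdj2 bin, junction 4 within the small RNA Gm23704, and junctions 5 and 6 in the bins starting at 54095001 and 54080001.
junction 1: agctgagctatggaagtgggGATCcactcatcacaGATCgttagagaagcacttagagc
junction 2: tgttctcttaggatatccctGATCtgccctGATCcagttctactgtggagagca
junction 3: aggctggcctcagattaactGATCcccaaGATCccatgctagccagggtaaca
junction 4: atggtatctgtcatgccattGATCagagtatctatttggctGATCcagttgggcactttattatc
junction 5: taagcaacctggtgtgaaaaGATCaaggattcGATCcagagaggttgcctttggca
junction 6: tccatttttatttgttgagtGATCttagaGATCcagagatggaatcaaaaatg

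**Figure D3:**
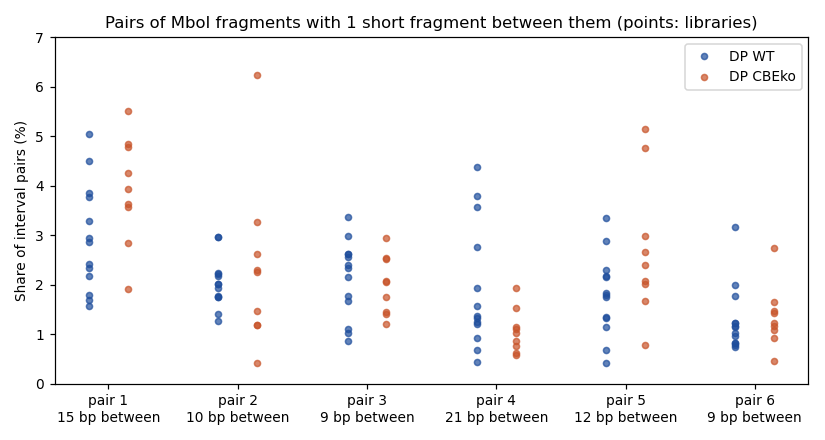
Share of interval pairs (y axis, %) held by each of the 6 leading pairs of MboI fragments with 1 short fragment between them (x axis, with the length of the fragment between), 1 point per library. Pair 1 ranges from 1.56 to 5.5%, with a median of 3.43%, and all 6 pairs were present in every DP WT and DP CBEko library with read-level files.

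With all pairs 1 fragment apart left out, the bin between Trdj1 and Trdj2 still held 18.9% of the interval's fragments from Trav17, 21.1% from Eα, 24.6% from TEAp, 25% from the Trdd2 bait and 26.7% from the second Eα bait. The 5 bins that hold the 6 junctions took 79.1 to 85.8% of the same-bin pairs of the interval in the 9 DP WT libraries of Eα, TEAp and Trav17, and 86.8 to 100% in the 6 liver libraries of these baits. Those liver libraries had no read-level files here, so their pairs could not be resolved below 5 kb.

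From the baits Eα, TEAp and Trdd2, the partner of an interval fragment was most often another fragment of the interval. In DP WT such pairs made up 33.7% ± 5.37 of interval pairs from Eα, 34.6% ± 1.92 from Trav17, 39.9% ± 0.989 from TEAp and 53.5% ± 1.2 from the Trdd2 bait (SD, n = 3). From Trav17 itself, the upstream V gene region (53.74 to 54.055 Mb), which holds the bait, came first, with 43.9% ± 2.37. Much of the pairing within the interval lay in same-bin pairs. Without them, pairs within the interval still came first from the Trdd2 bait (34.3% ± 0.569). From Eα they made up 17.5% ± 1.41, below V genes (25.8% ± 0.537) and the stretch from the J alpha genes to Eα (25.9% ± 1.13). From TEAp they made up 23.6% ± 0.45, below V genes (27.1% ± 0.712) and INT bins (26.6% ± 0.763). The stretch from the J alpha genes to Eα (54.165 to 54.23 Mb) holds J alpha genes but also Eα and the fragments of both Eα baits. With all pairs, V genes were the partner in 20.7% ± 1.6 of interval pairs from Eα, where this stretch took 20.9% ± 2.32. From TEAp V genes were the partner in 21.3% ± 0.584, where the INT bins (54.055 to 54.07 Mb) took 20.9% ± 0.856. These differed by less than the spread between libraries. From INT2, the INT bins, which hold the bait, were the partner in 79.4% ± 1.84 of interval pairs.

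Among single partner bins outside the interval, the 2 INT bins starting at 54060001 and 54065001 led from Eα (6.93% and 5.61% of interval pairs), from TEAp (11.3% ± 0.177 and 6.38% ± 0.783) and from the Trdd2 bait (6.48% ± 0.779 and 5.23% ± 0.918). From the second Eα bait they took 12.3% and 6.31%. From Trav17 the first was chr14:53800001-53805000 (7.09% ± 0.817), the V gene bin in which the bait fragment starts, and chr14:54060001-54065000 was the third (5.22% ± 1.7). The INT share differed along the interval: by 5 kb bin it ran from 10.1 to 32.8% from TEAp and from 7.28 to 26.7% from Eα.

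INT and interval bins lie close to each other, so this was set against distance. Relative to the mean count of all region bin pairs at the same distance, pairs of INT and interval bins were 7.91 times as frequent from TEAp, 8.01 times from the Trdd2 bait, 3.11 times from Eα, 4.7 times from the second Eα bait and 1.79 times from Trav17, and 21.7 times from INT2, whose bait lies in an INT bin. Relative to the product of the 2 bins' totals, the ratio was 1.35 from Eα, 1.25 from the second Eα bait, 1.66 from Trav17 and 1.24 from INT2, but 0.824 from TEAp and 0.636 from the Trdd2 bait. From TEAp and Trdd2 these pairs were above the first expectation and below the second.

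The comparison of DP CBEko, which lacks EACBE, with DP WT asks whether the element beside Eα shapes these contacts. In every DP CBEko library the interval took a smaller share of the region's pairs than in any DP WT library from both distant baits. Its partners lay less often among V genes from Eα and TEAp and more often downstream of Eα from all 3 baits, again without overlap between libraries. With 3 libraries against 3, the smallest p-value of the exact permutation test is 0.1, so none of these differences could pass the threshold. From Eα the interval share was 19.4%, 19.5% and 20.7% in DP WT and 17.6%, 16.1% and 16.6% in DP CBEko, a difference of -3.09 percentage points (exact permutation test, two-sided, p = 0.1, 0.15 after adjustment over 3 baits). From Trav17 it was 14.9%, 16.1% and 15.2% against 12.5%, 12.6% and 11%, a difference of -3.34 (exact permutation test, p = 0.1, adjusted 0.15). The groups did not overlap for either bait. With all pairs that have any fragment in the region as denominator, the share from Eα was 16.9 to 18.5% against 14.9 to 16.9%. That difference was -1.97 (exact permutation test, p = 0.2), and from Trav17 it was -2.82 (p = 0.1). From Eα the fall was not particular to the interval: the median log2 change was -0.29 over its bins and -0.40 over the region's. From Trav17 these medians were -0.36 and 0.01. From TEAp the means were 37.5% ± 0.492 and 36.7% ± 0.373, and the libraries overlapped (difference -0.846, exact permutation test, p = 0.2, n = 3 each).

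The partner class in which the genotypes did not overlap from all 3 baits was the sequence downstream of Eα (54.23 to 54.3 Mb), which holds Dad1, a gene for a subunit of the oligosaccharyltransferase complex. It was the partner in 3.51% ± 0.466 of interval pairs from Eα in DP WT and 8.89% ± 1.06 in DP CBEko. From TEAp the values were 2.98% ± 0.233 and 8.59% ± 0.715, and from Trav17 2.12% ± 0.453 and 4.31% ± 0.869. For all 3 baits every DP CBEko library lay above every DP WT library (exact permutation test, p = 0.1 each, n = 3 per group, 0.2 after adjustment over 18 comparisons). From TEAp the mean was higher in DP CBEko for 15 of 15 interval bins, from Eα for 13 of 15 and from Trav17 for 11 of 15, with 3 lower. The bins come from the same libraries, so these counts are no separate replication. Bins outside the interval were not counted in this way.

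V genes took a smaller share in every DP CBEko library than in any DP WT library from both baits at the right of the interval. From Eα their share of interval pairs was 20.7% ± 1.6 in DP WT and 12% ± 3.33 in DP CBEko, and from TEAp 21.3% ± 0.584 and 15.9% ± 1.15, without overlap (exact permutation test, p = 0.1 each, adjusted 0.2). From TEAp the mean was lower in 15 of 15 interval bins, and from Eα in 12 of 15, with 3 higher, again within the same libraries. From Trav17, which lies among the V genes, the shares were 43.9% ± 2.37 and 44.1% ± 4.37 and overlapped. The INT share from Eα was 15.4% ± 1.91 in DP WT against 10.8% ± 1.88 without overlap, while from TEAp it was 20.9% in both. From Trav17 it was 10.9% ± 0.826 against 9.42% ± 0.441, also without overlap, but by distinct pairs the difference turned to 0.238 percentage points. From Eα the stretch from the J alpha genes to Eα (54.165 to 54.23 Mb), which holds this bait, took 20.9% ± 2.32 in DP WT and 25% ± 0.5 in DP CBEko. TEAp with the proximal J genes took 5.85% ± 0.177 and 4.41% ± 0.542 from Eα, and both classes were without overlap (exact permutation test, p = 0.1 each, adjusted 0.2). The share of pairs within the interval overlapped between genotypes for all 3 baits.

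**Figure D4:**
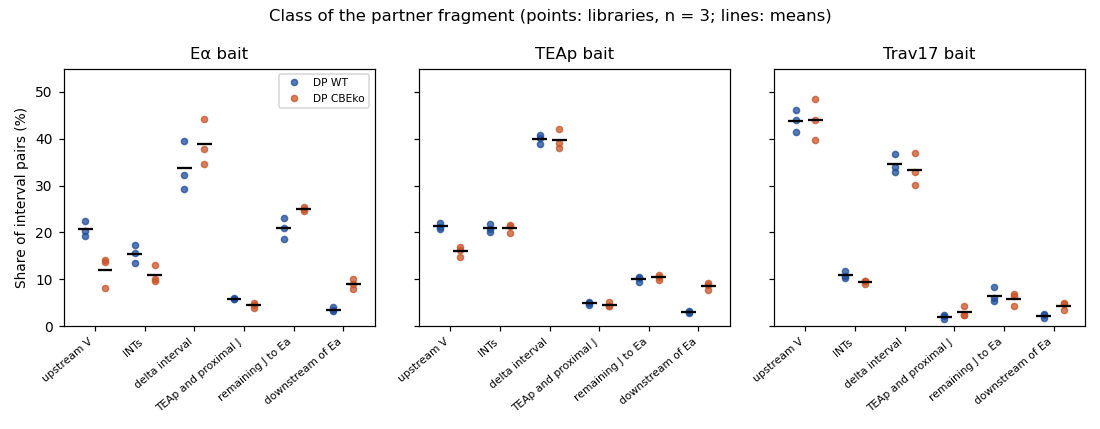
Share of interval pairs (y axis, %) by the class of the partner fragment (x axis) in DP WT and DP CBEko, 1 panel per bait. Points are libraries (n = 3 per group) and lines are means. The class downstream of Eα is higher in DP CBEko in all 3 panels, for example 8.59% against 2.98% from TEAp, and the V class is lower from Eα and TEAp.

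Within the interval, few bins differed between the genotypes by edgeR's quasi-likelihood test on fragment counts. Of 15 interval bins tested, 1 was called from Eα against 24.8% of all region bins, 2 from TEAp against 39.1% and 2 from Trav17 against 20.4%, at an adjusted p under 0.05. The bin from Eα was lower, as were 14.7% of region bins. From TEAp 1 was lower and 1 higher, against 22.7% and 16.4% of region bins, and from Trav17 both were lower, against 6.48%. As shares of the interval bins all calls make up 6.67%, 13.3% and 13.3%. The number called moved with single libraries. From Eα it was 3 without DP CBEko replicate 1, 0 without replicate 2 and 2 without replicate 3. From TEAp it was 4 without DP WT replicate 1, 4 without DP CBEko replicate 1 and 1 without DP CBEko replicate 2, and from Trav17 it was 0 without DP CBEko replicate 3. The median log2 change over the region's bins was -0.40 from Eα, -0.12 from TEAp and 0.01 from Trav17, and over the interval's bins -0.29, -0.07 and -0.36.

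The Trdd2 bin fell in DP CBEko from TEAp and Trav17. From TEAp it held 4575, 4385 and 6140 fragments in DP WT and 3270, 2868 and 1929 in DP CBEko, a log2 change of -0.42 (SE 0.08, edgeR adjusted p = 0.00105), which held in 12 of 12 alternative settings. From Trav17 it held 384, 495 and 1624 against 191, 218 and 195, a log2 change of -0.74 (SE 0.19, edgeR adjusted p = 8.40e-04), and the call was lost without DP CBEko replicate 3, where the adjusted p was 0.061. As a share of region fragments, every DP CBEko library lay below every DP WT library for both baits. From Eα the log2 change was -0.43 (edgeR adjusted p = 0.0581), which did not pass. The bin to its left, chr14:54115001-54120000, fell from Trav17 by 0.70 (SE 0.20, edgeR adjusted p = 0.00369), a call also lost without DP CBEko replicate 3, without same-bin pairs and by distinct pairs.

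The other called bins were less stable. From Eα the bin chr14:54090001-54095000 fell by 0.96 (SE 0.28, edgeR adjusted p = 0.0158). It had 372, 166 and 243 fragments in DP WT and 50, 43 and 103 in DP CBEko. This call was lost in 6 of 12 alternative settings, among them without DP WT replicate 3 and without DP CBEko replicate 2, where adjusted p reached up to 0.129. From TEAp the bin chr14:54080001-54085000 rose by 0.27 (SE 0.08, edgeR adjusted p = 0.0177). That call was lost without DP CBEko replicate 2 and without same-bin pairs, and by distinct pairs the log2 change was -0.01.

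By bin pair, only the TEAp bait gave calls in the interval. Of 1100 member bin pairs tested, 5 were called by edgeR (4 higher and 1 lower in DP CBEko), which is 0.455% of them against 1.14% of all region bin pairs (0.966% higher and 0.17% lower). Of the 4 that rose, 3 joined an interval bin to the bin starting at 54235001, where the span of Dad1 begins. With the bin between Trdj1 and Trdj2 the reads were 16, 11 and 28 in DP WT and 123, 103 and 93 in DP CBEko, a log2 change of 3.10 (SE 0.44, edgeR adjusted p = 1.87e-09). With the Trdd2 bin they were 13, 40 and 40 against 91, 98 and 72 (log2 change 1.96, SE 0.44, edgeR adjusted p = 0.00145). Both calls held in 12 of 12 alternative settings, while the number of calls was 2 without DP CBEko replicate 2.

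With the bin of the right end of Trdc the reads were 24, 19 and 40 against 62, 111 and 67, a log2 change of 2.09 (SE 0.46, edgeR adjusted p = 0.00119) that was lost without DP CBEko replicate 2. The pair of chr14:54115001-54120000 with chr14:54250001-54255000 rose by 3.60 (edgeR adjusted p = 0.0481) and kept its call in only 3 of 12 alternative settings. The pair that fell lay within the Trdd2 bin, with 437, 542 and 622 reads against 251, 227 and 158 (log2 change -0.86, SE 0.21, edgeR adjusted p = 0.00507), and its call was lost without DP WT replicate 2, without DP CBEko replicate 2 and by distinct pairs. Over the partner bins as a whole, the bin starting at 54235001 took 0.81% ± 0.0968 of interval pairs from TEAp in DP WT and 3.37% ± 0.153 in DP CBEko (SD, n = 3).

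From Eα, 0 of 444 member bin pairs were called by edgeR (27 at an unadjusted p under 0.05, and 0 by DESeq2) against 0.595% of the region's bin pairs. Without DP CBEko replicate 2 there was 1. From Trav17, 0 of 438 were called (39 at an unadjusted p under 0.05, and 1 by DESeq2) against 0.0431% of the region's. The DP CBEko libraries of these baits held 9280 to 16710 region pairs, compared with 32052 to 56636 from TEAp.

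Liver is the comparison with a non-lymphoid tissue. The interval took a larger share of the region's pairs in DP WT than in liver from the distant baits and a smaller one from TEAp. From Trav17 the share was 15.4% ± 0.631 in DP WT and 7.38% and 5.63% in the 2 liver libraries, and from Eα 19.9% ± 0.738 against 11.3% and 13.8%. From TEAp it was 37.5% ± 0.492 against 40.4% and 43.3%. None of these groups overlapped, but without same-bin pairs those from TEAp did, at 38.1%, 38.8% and 38% against 42.4% and 36.2% (difference -0.994 percentage points, exact permutation test, p = 0.8). With all pairs, the smallest p the exact permutation test allows with 3 against 2 libraries is 0.1, which each of the 3 baits reached (0.133 after adjustment over 4 baits). From INT2 the means were 28.9% ± 1.91 and 24.5% ± 2.87, also without overlap (exact permutation test, p = 0.2, n = 3 and 2), and without same-bin pairs the difference turned to -1.24 percentage points.

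The V genes were partners of the interval in DP cells far more than in liver from the 3 baits outside the V region. Their share of interval pairs was 20.7% ± 1.6 in DP WT and 1.5% ± 0.4 in liver from Eα, 21.3% ± 0.584 and 4.29% ± 3.27 from TEAp, and 5.81% ± 0.573 and 0.19% ± 0.127 from INT2, without overlap (exact permutation test, p = 0.1 each, 0.126 after adjustment over 24 comparisons, n = 3 and 2). The liver reads behind these shares were few, with 2 from Eα, 96 from TEAp and 16 from INT2. From Trav17 the shares were 43.9% ± 2.37 and 21.4% ± 0.485, but without same-bin pairs the difference turned from 22.5 to -20.4 percentage points. TEAp and the proximal J genes (54.15 to 54.165 Mb, which hold the TEAp bait) were also more frequent partners in DP WT from all 4 baits. From TEAp they took 4.88% ± 0.355 against 2.06% ± 0.123. Liver held 36 such reads from TEAp, 17 from INT2, 1 from Trav17 and 0 from Eα. Without same-bin pairs the libraries overlapped from TEAp (6.2% ± 0.501 against 5.29% ± 1.35) and Trav17 (2.52% ± 0.648 against 1.28% ± 1.81). Those from Eα (7.31% ± 0.729 against 0) and INT2 (0.931% ± 0.154 against 0.218% ± 0.159) stayed apart.

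Pairs within the interval dominated in liver. They made up 71.7% ± 0.37 of interval pairs from Eα, 71.5% ± 10.5 from Trav17 and 70.1% ± 9.89 from TEAp, against 33.7 to 39.9% in DP WT. Most of these lay in a single bin, and the 5 bins with the short-fragment junctions alone took 46.3 to 78.9% of liver interval pairs from these baits, against 12.1 to 21.6% in DP WT. Without same-bin pairs the difference turned in the other direction from Eα (10.1 percentage points higher in DP WT) and Trav17 (9.95). From INT2, pairs within the interval made up 11.1% ± 0.84 in DP WT and 4.98% ± 0.175 in liver.

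The Trdd2 bin took a larger share of the interval's fragments in DP WT than in liver from INT2 and TEAp. From INT2 the Trdd2 bin held 12% ± 0.495 of the interval's fragments in DP WT and 4.77% and 4.13% in liver, and the bin between Trdj1 and Trdj2 held 18.5% ± 0.86 against 8.24% and 7.66%. In liver the profile from INT2 instead fell off from the bait side, with 14.7% in the first bin of the interval and 13.2% in the second. From TEAp the Trdd2 bin held 14.8% ± 1.59 in DP WT against 2.59% and 3.51% in liver. The bin between Trdj1 and Trdj2, which holds junctions 1 and 3, did not differ in this way from TEAp, with 28.1% against 28.5%, until same-bin pairs were left out, when it was 21.4% in DP WT and 8.78% in liver.

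**Figure D5:**
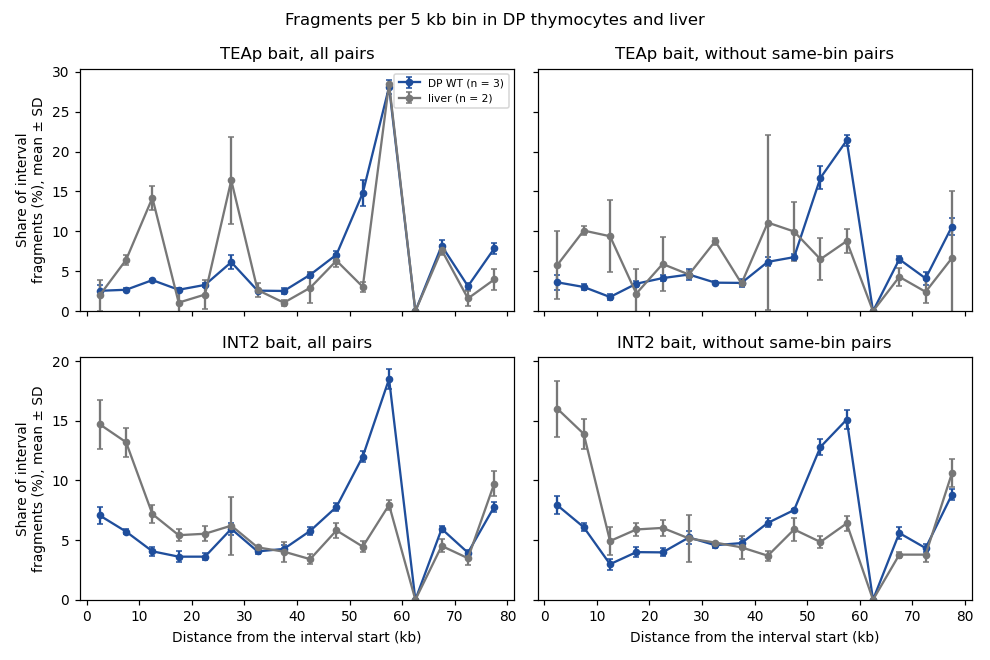
Share of the interval's fragments (y axis, %, mean ± SD) per 5 kb bin against distance from the interval start (x axis, kb) in DP WT (n = 3) and liver (n = 2), from TEAp (top) and INT2 (bottom), with all pairs (left) and without same-bin pairs (right). The Trdd2 bin at 50 to 55 kb is higher in DP WT in all 4 panels, for example 14.8% against 3.05% from TEAp with all pairs.

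By edgeR on fragment counts, the Trdd2 bin was higher in DP WT from all 4 baits. The log2 difference was 1.97 from TEAp (SE 0.23, edgeR adjusted p = 2.48e-04), with 4575, 4385 and 6140 fragments against 57 and 22 in liver. It was 1.73 from INT2 (SE 0.16, edgeR adjusted p = 8.65e-10), 1.44 from Eα (SE 0.47, adjusted p = 0.00626) and 1.89 from Trav17 (SE 0.61, adjusted p = 0.0325). The calls from TEAp and INT2 held in 10 of 10 alternative settings. That from Eα was lost without same-bin pairs and with the replicate block, and that from Trav17 with TMM, with the replicate block, without DP WT replicate 2 and without DP WT replicate 3, where adjusted p over the alternatives reached up to 0.239. The median bin of the whole region was itself higher in DP WT, by 0.48 from TEAp, 0.97 from INT2, 1.69 from Eα and 0.73 from Trav17, so from Eα the Trdd2 bin rose less than the median bin of the region. The bin between Trdj1 and Trdj2 did not rise from every bait. Its log2 difference was 1.52 from INT2 (edgeR adjusted p = 8.65e-10) and 1.06 from Eα (adjusted p = 0.00387), the latter below the region's median. From TEAp it was lower in DP WT, at -0.45 (adjusted p = 0.00507), and from Trav17 it was not called (-0.19, adjusted p = 0.625).

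Over the interval, 5 of 15 bins were called from TEAp (1 higher and 4 lower in DP WT) against 42.2% of region bins (29.4% higher, 12.8% lower), and 8 from Eα (6 higher, 2 lower) against 56.5% (40.7% and 15.7%). From Trav17, 4 were called, all higher, against 32.4% (24.1% higher). This number was 1 without DP WT replicate 2 and 9 without liver replicate 1, and that from TEAp was 8 without liver replicate 1. From INT2, 10 were called (7 higher, 3 lower) against 66.1% (57.8% and 8.26%), but with TMM scaling the split was 3 higher and 8 lower, and with DESeq2 2 higher and 7 lower. The first and second bins of the interval were lower in DP WT from INT2, with log2 differences of -0.72 and -0.91, and both calls held in 10 of 10 alternative settings.

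Of the called bins, 4 had no fragment in liver and were tested only because of their DP reads. They were set against a limit of 3 counts over both liver libraries, which assumes independent reads. From Trav17, chr14:54115001-54120000 stood 13.9-fold, the Trdd1 bin, chr14:54110001-54115000, 7.43-fold and the bin starting at 54145001 6.71-fold above this limit in DP WT. From Eα, chr14:54140001-54145000 stood 2.79-fold above it. Reads include PCR copies, and from Trav17 the 2 liver libraries held 14 and 0 fragments in the Trdd2 bin and 1 and 18 in chr14:54095001-54100000. These folds, and those of bin pairs below, are therefore no lower bounds. The calls of the Trdd1 bin and of the bin starting at 54145001 were lost without DP WT replicate 2. The bins that were lower in DP WT from Eα and TEAp were mainly junction bins: chr14:54080001-54085000 by 2.22 and 2.28 and chr14:54095001-54100000 by 1.29 and 1.79 on the log2 scale. From Eα both changed sign without same-bin pairs, to 9.14 and 2.53, and the first of these rests on a liver count of 0. The TEAp call of chr14:54080001-54085000 held in 10 of 10 alternative settings, while that of chr14:54095001-54100000 was lost without same-bin pairs. Also lower from TEAp was the bin starting at 54075001, which is not a junction bin (log2 difference -1.65, edgeR adjusted p = 5.35e-04). Its call held in 10 of 10 alternative settings. Likewise lower from TEAp was the junction bin starting at 54125001 (-0.45), which changed sign without same-bin pairs, to 1.07.

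From INT2, 29 of 595 members were called (25 higher and 4 lower in DP WT), which is 4.87% against 6.64% of the region's bin pairs (5.71% higher and 0.93% lower). The leading ones joined the INT bin chr14:54060001-54065000 to interval bins and had 0 reads in both liver libraries. The count filter summed both groups, so such pairs were tested only because of their DP reads, and their direction is no separate result. Over all members tested the median log2 difference was 5.16, against 5.04 over the region's bin pairs. With the Trdd2 bin this INT bin stood 35.3-fold above the liver limit used for the bins above. With the bin between Trdd1 and Trdd2, chr14:54115001-54120000, it had 185, 215 and 118 reads in DP WT (15.7-fold). With the first bin of the interval it had 183, 168 and 134 reads (15.3-fold), and with the Trdj2 bin 95, 270 and 116 (12.7-fold). Pairs within the Trdd2 bin had 146, 260 and 167 reads (16.3-fold). Without DP WT replicate 2 the count of calls from INT2 was 0.

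From TEAp, 26 of 858 members were called (10 higher and 16 lower in DP WT), 3.03% against 2.39% of the region's bin pairs (0.523% higher and 1.87% lower), and the split depended on the scaling, at 52 higher and 1 lower with TMM and 30 and 2 with DESeq2. Over all members tested the median log2 difference was 5.05, against 5.06 over the region's bin pairs. The called pairs with 0 liver reads were again tested only because of their DP reads. Among them, the leftmost INT bin with the Trdd2 bin had 180, 175 and 199 reads in DP WT (3.99-fold above the liver limit). The Trdd1 bin with the bin between Trdj1 and Trdj2 had 127, 176 and 135 (3.25-fold). The Trdd2 bin with the right end of Trdc had 111, 143 and 171 (3.06-fold). These calls were lost in 6 of 10 alternative settings, among them without DP WT replicate 1, 2 or 3 in turn and without liver replicate 1. The number of calls was 0 without DP WT replicate 2, 5 without replicate 1, 8 without replicate 3 and 40 without liver replicate 2.

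From Eα, 4 of 364 members were called, all lower in DP WT, against 1.31% of the region's bin pairs (1.25% lower), and 2 of these were same-bin pairs of junction bins. The direction turned with the scaling, at 9 higher and 0 lower with TMM and 6 higher and 2 lower with DESeq2. The pair within chr14:54080001-54085000 had 77 to 143 reads in DP WT and 17 and 18 in liver (log2 difference -2.82, SE 0.54, edgeR adjusted p = 2.99e-05). With TMM this difference was -0.78 and not called (edgeR adjusted p = 0.54), and with DESeq2 it was -1.18 (adjusted p = 0.027). Without DP WT replicate 1, and likewise without replicate 2, there were 0 calls from Eα. From Trav17, 1 of 356 was called, lower in DP WT, against 1.23% (1.17% lower), with 0 calls without DP WT replicate 3 and 3 without liver replicate 2. With TMM 5 were higher and 1 lower, and with DESeq2 4 were higher and 0 lower. At 406 to 1247 region pairs per liver library from these baits, the absence of other calls is no measure of likeness between DP cells and liver.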

How the data were processed

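Per the labels and the study's methods, the authors trimmed reads with fastp 0.20.0 and Cutadapt 1.18, split them at MboI sites, mapped fragments to mm10 with Bowtie2 2.4.5, removed self-ligated, off-target and continuous fragments, and kept the first 2 fragments after the bait. They deposited raw counts of pairs per 5 kb bin pair for 30 libraries and, for 22 libraries, lists of the paired fragments of each read, whose values are of another kind (positions, unit other). Their normalised files were not used.

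Counts were taken from the raw tables, or from the reads for the Trdd2 bait. Library size was the region's total. Bins and bin pairs with at least 10 counts over the libraries compared were tested with edgeR 4.0.16 (quasi-likelihood, no normalisation factors, Benjamini-Hochberg over the region). The SE given with edgeR is the absolute log2 change divided by the square root of the test's F statistic. Shares were tested with exact two-sided permutation tests over all regroupings of the libraries, in Python 3.11.15 with numpy 2.4.6. Scripts were tested on simulated data, in which the region total as library size gave more false calls than the threshold allows in some comparisons, with the highest share for bins from TEAp, and few changed bin pairs were recovered against liver. Named were the annotated genes, the 3 leading bins and 5 leading fragments per group, and the called bins and up to 5 called bin pairs with the largest changes and no overlap. Alternatives were TMM, DESeq2 1.42.0, no filter, no same-bin pairs, distinct pairs, 10 kb bins, leaving out each library, and the replicate block. Members, lists and tests were chosen with earlier results of these data known. Replicates of 1 group differed by more than sampling noise in 28 of 28 pairs (chi-square per degree of freedom 3.4 to 17.7). The study calls libraries of a group biological replicates but does not tie them to animals, so p-values measure the spread between libraries.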

Additional observations from a re-analysis of the deposited data

How the results depend on the processing

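Of 618 alternative values of results that answer a comparison, 510 were counted as unchanged, 81 moved further and 27 changed sign. For a share difference unchanged meant only the same sign, whatever its p-value. A count of calls had to be similar, and a description had to stay within the spread. The interval share from TEAp against liver, for example, counted as unchanged without same-bin pairs, though its groups then overlapped. Of 506 alternative values of single bins or bin pairs, 383 kept their call, 114 lost it and 9 changed sign. Leaving out same-bin pairs turned the sign of several differences between groups (percentage points). For DP against liver these were the interval share from INT2 (-1.24), V genes from Trav17 (-20.4) and INTs from Eα (-12.1) and TEAp (-10.5). Pairs within the interval also turned from Eα (10.1) and Trav17 (9.95). So did the stretch from the J alpha genes to Eα, from the baits Eα (-16.2), TEAp (-5.02) and Trav17 (-4.69). For DP CBEko against DP WT the differences that turned were INTs from TEAp (0.0176) and pairs within the interval from Eα (-0.491). Counting distinct pairs turned INTs from TEAp (0.582) and Trav17 (0.238). Among single bins, the log2 difference became -0.01 for 54080001 from TEAp in DP CBEko with distinct pairs. Against liver it became 9.14 for 54080001 and 2.53 for 54095001 from Eα and 1.07 for 54125001 from TEAp without same-bin pairs. From INT2 it became -0.23 with TMM and -0.31 with DESeq2 for 54105001, -0.20 and -0.27 for 54140001, and -0.01 with DESeq2 for 54135001. The cause was not tested.

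Leaving out each library in turn gave some ranges that crossed 0. For DP CBEko against DP WT these were V genes from Trav17 (-2 to 2.38), INTs from TEAp (-0.415 to 0.54) and pairs within the interval from TEAp (-1.41 to 0.616) and Trav17 (-3.04 to 0.384). The stretch from the J alpha genes to Eα also crossed 0 from Trav17 (-1.25 to 0.244). For DP WT against liver the ranges that crossed 0 were INTs from Eα (-2.43 to 15.4) and this stretch from Trav17 (-4.39 to 6.48). Sequence downstream of Eα crossed 0 from the Eα bait (-3.81 to 1.72) and from TEAp (-0.433 to 2.98).

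Counts of called bins in DP CBEko were 0 from Eα with TMM, DESeq2 and without same-bin pairs, 3 with distinct pairs and 0 to 3 without 1 library. From TEAp they were 4 with DESeq2 and with distinct pairs and 1 to 4 without 1 library, and from Trav17 1 with distinct pairs and 0 to 3 without 1 library. Against liver they were 5 with DESeq2 and 3 without same-bin pairs from Eα, 8 with DESeq2 and 5 to 8 without 1 library from TEAp, and 1 to 9 without 1 library from Trav17. Counts of called bin pairs in DP CBEko were 15 with DESeq2, 3 without same-bin pairs, 20 with distinct pairs and 2 to 6 without 1 library from TEAp, 0 to 1 without 1 library from Eα and 1 with DESeq2 from Trav17. Against liver they were 9 with TMM, 8 with DESeq2, 2 without same-bin pairs and 0 to 4 without 1 library from Eα, 53 with TMM and 0 to 40 without 1 library from TEAp, 6 with TMM, 4 with DESeq2, 2 without same-bin pairs and 0 to 3 without 1 library from Trav17, and 0 to 26 without 1 library from INT2.

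The share of the bin between Trdj1 and Trdj2 was 18% from Trav17, 15.1% from INT2, 21.4% from TEAp, 19% from Eα, 22.2% from Trdd2 and 23.4% from the second Eα bait without same-bin pairs. With distinct pairs it was 18.8%, 20.8%, 19.9%, 21.8% and 24.3% for the same baits without INT2. Weighted by MboI fragments it was 13.5%, 11%, 17.8%, 15.8%, 17.7% and 21%. Without pairs 1 fragment apart, an alternative chosen after seeing the data, it was 18.9%, 24.6%, 21.1%, 25% and 26.7% for the baits other than INT2. The ratio of INT pairs to the distance expectation was 2.16 from Trav17, 33.4 from INT2, 9.66 from TEAp, 10 from Trdd2 and 5.79 from the second Eα bait with 10 kb bins, and relative to bin totals 1.24 from INT2, 0.824 from TEAp, 1.35 from Eα, 0.636 from Trdd2 and 1.25 from the second Eα bait.

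Whether replicate numbers pair the samples could not be settled. The deviations of same-numbered libraries correlated at -0.315 to 0.131, but groups were small and some liver libraries shallow, so pairing is not excluded. With the replicate block, counts of called bins were 0 from Eα in DP CBEko, and 1 from Eα and 1 from Trav17 against liver, and counts of called bin pairs against liver were 2 from Eα, 3 from TEAp, 0 from Trav17 and 16 from INT2. Depth limits the liver comparisons, since the 6 liver libraries of Eα, TEAp and Trav17 held 406 to 3333 region pairs.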
